A study of Mus musculus with 2 samples.

Results

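Genes of the megakaryocyte and erythroid lineages, Car2, Car1, Tfrc, Hbb-bt, Gata1, Zfpm1, Itga2b, Pf4 and Apoe, were followed in single multipotent progenitors of mouse bone marrow. The 9 genes were chosen by symbol among the 27998 genes of the count matrix, before any filter on level. They were described over the 7823 kept cells of 7884 cell barcodes, a kept cell having at least 500 genes and under 10% of its unique molecular identifiers (UMIs, one per captured RNA molecule) from mitochondrial genes. The study compared progenitors of C57BL/6 Spp1-/- mice, which lack the secreted phosphoprotein osteopontin, with those of C57BL/6 wild-type mice, 1 sample of each. All mice had received thioglycollate, a sterile inflammatory irritant, into the peritoneum 20 h earlier, so no group without inflammation was analysed here. Per the labels the sort was Lin–Sca-1+c-kit+CD34+Flt3L+, and cells were profiled by droplet-based counting at transcript 3' ends. The number of animals behind each sample is not known from these sources.

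The deposited matrix holds both libraries together, told apart only by a suffix of the barcode, and nothing in the labels or files links either suffix to a genotype. They are called library 2 and library 1 after the suffix, and every ratio is library 2 over library 1, with no direction by genotype. Spp1 itself had 1 UMI in library 2 and 33 UMIs in library 1, which was not used to assign a genotype. Library 2 held 4570 kept cells with a median of 3836 UMIs, and library 1 held 3253 kept cells with a median of 2830.0 UMIs. The 2 libraries shared 32 barcode sequences. Of the sort markers, Ly6a (Sca-1) had a UMI in 59.0% of cells of library 2 and 54.4% of library 1, Cd34 in 80.4% and 67.8%, Flt3 in 41.6% and 30.3%, and Kit in 13.6% and 10.1%. With 1 library per suffix there is no replicate and no test: levels are given as UMIs per 1000000 (CPM) with exact Poisson 95% intervals, shares of cells with exact binomial (Clopper-Pearson) 95% intervals, and ratios with exact conditional Poisson intervals. All of them cover counting error only, and they are too narrow for Car1 and Hbb-bt, whose UMIs were concentrated in few cells.

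Megakaryocytes, which shed platelets, and erythroid cells, which make haemoglobin, arise from shared precursors under the control of the transcription factor Gata1 and its partners. Progenitors gated on Flt3 are usually placed on the lymphoid and myeloid side of the tree, with little megakaryocyte and erythroid output. Hlf and Mecom, transcription factors of stem cells and the earliest progenitors, mark the least committed end of such a gate.

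Levels of the 9 genes differed widely. Car2 was the most abundant, at 385 CPM (376 to 394) in library 2 and 329 CPM (318 to 340.0) in library 1. Hbb-bt followed with 47.0 CPM (43.9 to 50.2) in library 2 and 98.3 CPM (92.3 to 105) in library 1. Tfrc came next with 15.5 CPM (13.8 to 17.4) in library 2 and 10.5 CPM (8.58 to 12.7) in library 1. The intervals of these 3 genes did not overlap each other in either library, and counting at 3' ends makes levels of different genes comparable without a length correction. Apoe, Car1 and Itga2b lay together below them: their intervals overlapped in library 1, where they ran from 1.52 to 5.72 CPM, and in library 2, where they ran from 2.91 to 5.66 CPM. Pf4, Zfpm1 and Gata1 were at the foot of the order, Gata1 with 0.107 CPM (0.0129 to 0.385) in library 2 and 0.0988 CPM (0.00250 to 0.551) in library 1. In library 1, though, the Pf4 interval of 1.44 to 3.41 CPM overlapped those of Apoe, Car1 and Itga2b. That of Zfpm1, 0.341 to 1.56 CPM, reached that of Car1 there.

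**Figure D1:**
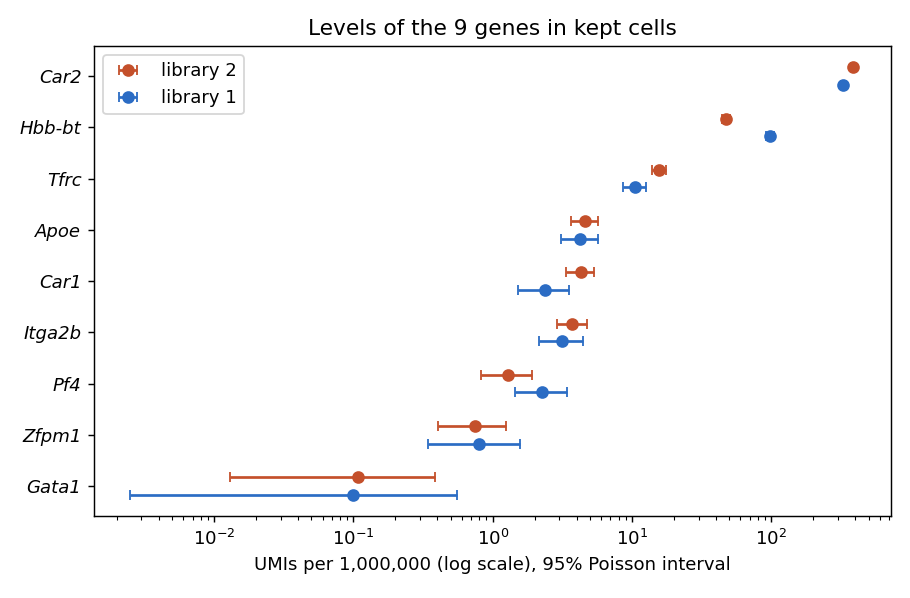
Levels of the 9 genes in kept cells, as UMIs per 1000000 on a logarithmic axis, with exact Poisson 95% intervals; library 2 is drawn above library 1 in each row. Car2 lies furthest right at 385 and 329 CPM, Gata1 furthest left, and Hbb-bt has clearly separate values of 47.0 and 98.3 CPM.

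Of the 6 genes with at least 50 UMIs, Car1 was at least 1.5-fold higher and Hbb-bt at least 1.5-fold lower in library 2. Among all 10099 genes with at least 50 UMIs, 4.79% passed that fold upwards and 2.46% downwards, and the median gene was 0.11 higher in library 2 on the log2 scale. Hbb-bt had a ratio of 0.478 (0.436 to 0.524), Car1 1.80 (1.13 to 2.97), Tfrc 1.48 (1.18 to 1.87) and Car2 1.17 (1.12 to 1.22). The ratios of Itga2b, 1.18 (0.767 to 1.85), and Apoe, 1.08 (0.740 to 1.59), had intervals that include 1. Pf4, Zfpm1 and Gata1 had fewer than 50 UMIs in all and were not counted. The Car1 ratio rested on 6 cells, described below: without them none of the 5 genes with at least 50 UMIs was 1.5-fold higher, and Hbb-bt was still lower. As a mean over cells of CPM the Car1 log2 ratio was 0.11, and without the 5% of cells with the most UMIs it was 0.10; in both settings the gene past 1.5-fold was Tfrc, at 0.67 and 0.61.

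The factors at the head of the programme were almost undetected. Gata1, the zinc-finger factor required for red cells and platelets (chrX:7959260-7978071 in GRCm38, the build also called mm10), had 2 UMIs in 2 cells of library 2 and 1 UMI in 1 cell of library 1. Zfpm1, also called Friend of GATA1, its cofactor (chr8:122282141-122337251), had 14 UMIs in 14 cells of library 2 and 8 UMIs in 8 cells of library 1. No thinned cell had both, where the product of the separate shares gives 0.00125 cells in library 2 and 0.00205 cells in library 1. So few cells could not show whether the genes overlap, and neither gene exceeded 1 UMI in any cell. At these counts the libraries could not be distinguished for either gene: the ratio was 0.944 (0.370 to 2.60) for Zfpm1. The haematopoietic factors that act with Gata1 but are also used by earlier progenitors were readily counted. Of the 12 genes of that shared list, 11 had at least 50 UMIs, led by Lmo2 with 85.0 CPM in library 2 and 79.0 CPM in library 1, Nfe2 with 72.4 and 73.0 CPM, and Cbfa2t3 with 72.2 and 69.8 CPM. Only Lyl1 among them was past 1.5-fold between the libraries, at 79.6 CPM in library 2 and 52.8 CPM in library 1. Gata2, the GATA factor of stem and early progenitor cells, had 6.13 CPM (5.06 to 7.36) in library 2 and 7.12 CPM (5.57 to 8.96) in library 1.

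Car2, a cytosolic carbonic anhydrase that interconverts carbon dioxide and bicarbonate (chr3:14886273-14900770), was found in most cells. It had a UMI in 64.2% of cells (62.8 to 65.6) in library 2 and in 53.3% (51.6 to 55.1) in library 1. With cells cut at random to an equal depth of 2000 UMIs (thinning), 4016 cells in library 2 and 2444 in library 1 could be compared, and the shares were 47.2% (45.7 to 48.8) and 39.7% (37.7 to 41.7). So library 2 had the larger share at equal depth as well. Most Car2 cells held a few UMIs: 20 cells of library 2 and 2 cells of library 1 reached 10, and the highest cell held 63 UMIs in library 2 and 11 UMIs in library 1.

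The number of Car2 UMIs in a cell barely followed the cell's depth. The cells of each library were placed in 4 classes of equal size by depth. The deepest class of library 2 averaged 1.65 Car2 UMIs per cell, against 1.47 in the shallowest. In library 1 these means were 1.15 and 0.982. The ratio of deepest to shallowest class was 1.13 (1.05 to 1.20) in library 2 and 1.17 (1.06 to 1.29) in library 1, while all UMIs together differed 3.41-fold and 3.42-fold and the median gene 3.45-fold and 3.56-fold. Among 7521 genes, 0.665% stayed at or below 1.25-fold in both libraries, and Car2 had more UMIs than any other of those 50 genes. Hbb-bt lay between Car2 and the median gene, at 1.91 (1.58 to 2.33) in library 2 and 1.78 (1.5 to 2.12) in library 1. It was among the flatter genes, at percentiles 6.65 and 5.66. Tfrc went the other way, with 6.25 (4.04 to 10.1) in library 2 and 6.64 (3.28 to 15.2) in library 1, which put it among the steeper genes, at percentiles 94.3 and 92.1. The comparison of depth classes for genes other than the haemoglobins was added after the data had been seen. Barcodes set aside for few genes also carried Car2: of 59 such barcodes in library 1, 30 had a UMI, at 1.14 UMIs per barcode.

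**Figure D2:**
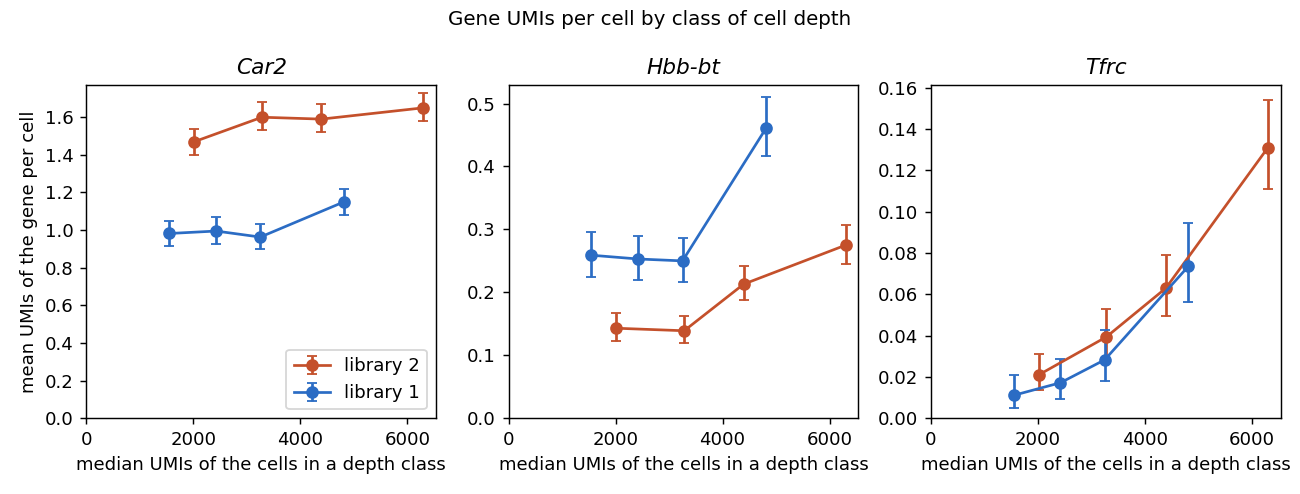
Mean UMIs per cell of Car2, Hbb-bt and Tfrc (vertical axes, from 0) in the 4 classes of cell depth, placed at each class's median UMIs, with exact Poisson 95% intervals; library 2 and library 1 are drawn as separate lines. Car2 stays between 1.47 and 1.65 UMIs in library 2 and between 0.963 and 1.15 UMIs in library 1, Hbb-bt is higher in the deepest class than in the shallowest in both libraries, and Tfrc climbs throughout.

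The share of cells with Car2 differed between kinds of progenitor at equal depth. Cells with at least 3 UMIs of granule protease genes of granulocyte precursors had Car2 in 22.7% (17.2 to 29.0) of cells, against 48.5% (46.9 to 50.1) of other cells, in library 2. In library 1 the shares were 19.8% (13.1 to 28.1) and 40.7% (38.7 to 42.8). Car2 averaged 0.316 (0.239 to 0.410) and 0.373 (0.249 to 0.538) of its level in other cells there, in library 2 and library 1. Before thinning, the granule cells of library 2 had a median depth of 6185 UMIs, against 4019 UMIs in other cells. In library 1 these depths were 5173 and 3200.0 UMIs. Thinning removes a larger part of the UMIs of deeper cells, and the part of depth in these Car2 values was not tested. Car2 was the only one of the 4 genes with at least 50 thinned UMIs past 1.5-fold lower in both libraries in the granule cells, where 8.52% of all genes passed. Cells with Dntt, the template-independent DNA polymerase of lymphoid precursors, had Car2 at 0.730 (0.680 to 0.784) of the level of cells without it in library 2 and at 0.624 (0.558 to 0.698) in library 1. In cells with at least 20 MHC class II UMIs, genes of dendritic and B cells rather than of erythroid cells, Car2 was found in 14 of 41 cells of library 1, or 34.1% (20.1 to 50.6), at a median depth of 3030.0 UMIs, against 53.6% (51.8 to 55.3) of the remaining cells at a median depth of 2826 UMIs. Library 2 had 2 such cells, too few for a share.

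Car1, the carbonic anhydrase characteristic of red cells and a neighbour of Car2 (chr3:14766216-14808368), showed the opposite pattern: almost no cell had it, and those that did had a great deal. It had 80 UMIs in 8 cells of library 2 and 24 UMIs in 2 cells of library 1. In library 2, 4 cells held 31, 20, 18 and 7 Car1 UMIs and the other 4 cells held 1 UMI each. In library 1 the 2 cells held 14 and 10 UMIs. The 6 cells with at least 5 UMIs thus held 95% of the Car1 UMIs of library 2 and 100% of those of library 1.

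These 6 cells carried other erythroid genes. Their Car2 UMIs were 63, 20, 49 and 6 in library 2 and 11 and 4 in library 1, in the order of the Car1 values above, and together Car2 reached 6053 CPM in the 4 cells of library 2, against 378 CPM in the rest of that library. Of all Rhd UMIs, the gene of the Rhesus membrane protein, 75% in library 2 and 50% in library 1 were in these cells. They also held 80.0% of the 5 UMIs of Epor, the erythropoietin receptor, in library 2, and 25% and 21.4% of the UMIs of Klf1, the erythroid Krüppel-like factor, in library 2 and library 1. Hlf and Mecom had no UMI in any of them. Flt3, on which the cells were to be sorted, had 2 UMIs in 1 of the 4 cells of library 2 and none in the 2 cells of library 1, and Tfrc, Itga2b and Pf4 had none in any of the 6. Haemoglobin was not prominent: Hbb-bt had 1, 0, 1 and 0 UMIs in library 2 and 2 and 0 UMIs in library 1. These cells were selected by Car1, so their other genes are given as a description. Their depths ran from 1442 to 13705 UMIs in library 2 and were 1095 and 3619 UMIs in library 1. Their mitotic UMIs ran from 1 to 96 in library 2 and were 2 and 26 in library 1.

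**Figure D3:**
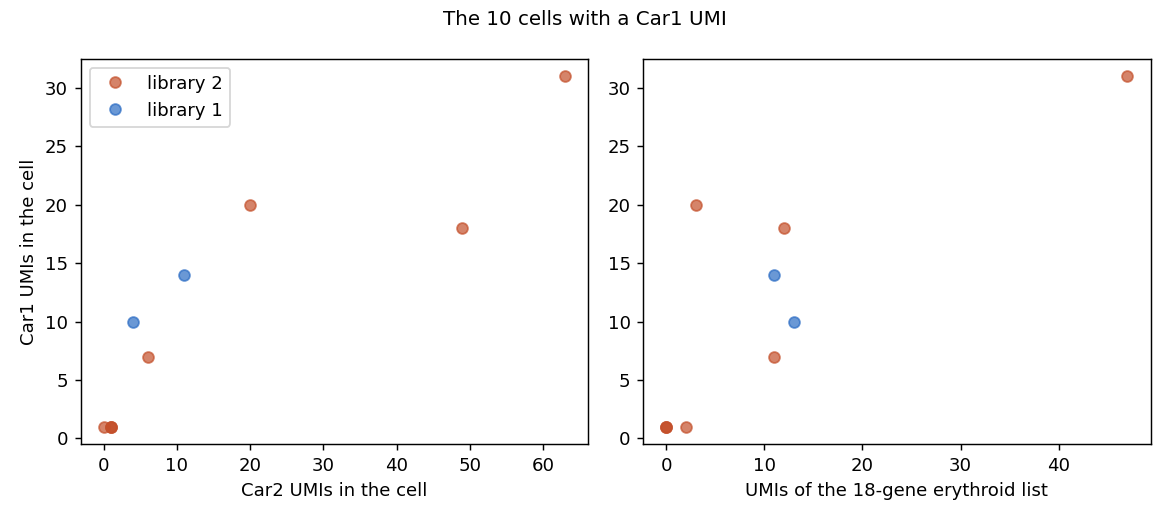
Car1 UMIs (vertical axis) against Car2 UMIs (left panel) and against the UMIs of the 18-gene erythroid list (right panel) in the 10 cells with a Car1 UMI, 8 of library 2 and 2 of library 1. The 6 cells with at least 7 Car1 UMIs all carry Car2 and erythroid-list UMIs, and the 4 cells with 1 Car1 UMI lie at the lower left.

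Of the wider erythroid list, 3 of 18 genes had at least 50 UMIs, none of them past 1.5-fold between the libraries, with a median log2 ratio of -0.05. They were Blvrb, biliverdin reductase B, with 37.5 CPM in library 2 and 38.8 CPM in library 1, Cnrip1 with 18.1 and 20.5 CPM, and Hemgn, a nuclear protein of haematopoietic precursors, with 6.83 and 7.02 CPM. Slc4a1, the anion exchanger of the red cell membrane, and Trim10 had no UMI, and Alas2, the erythroid enzyme of haem synthesis, had 0 UMIs in library 2 and 1 UMI in library 1. Cells with a thinned UMI of Klf1, Epor, Ermap or Rhd numbered 10 in library 2 and 5 in library 1. Car2 averaged 4.50 UMIs in those 10 cells, against 0.833 UMIs in other cells, in library 2, and 1.40 UMIs in those 5 cells, against 0.621 UMIs, in library 1. Of those 10 cells, 3 had Car1, and without the cells rich in Car1 the Car2 log2 difference in library 2 was 0.46, against 2.43 with them, and Car2 no longer passed. Car2 and Hbb-bt were counted as higher there in both libraries, among 4 genes with at least 50 thinned UMIs, where 4.53% of all genes passed upwards and 48.9% downwards. Tfrc and Apoe had 0 UMIs in these 10 and 5 cells, which counts them among the lower genes, but at 0.0287 and 0.00924 UMIs per other cell in library 2 a difference was not detectable. Over all UMIs Tfrc was at 1.88-fold (0.386 to 5.56) in library 2 and 1.42-fold (0.0357 to 8.10) in library 1, and Apoe at 6.53-fold (1.32 to 19.8) in library 2, from 3 UMIs, with 0 UMIs in the class in library 1. In library 2 the 11 Hbb-bt UMIs in this class came from 1 cell, and with another random draw neither gene passed. Counts from so few cells moved with the draw.

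Tfrc, the transferrin receptor that brings iron into the cell and is high in erythroblasts and in dividing cells generally (chr16:32608920-32632794), had 291 UMIs in 5.95% of cells (5.28 to 6.68) in library 2 and 106 UMIs in 3.14% (2.56 to 3.79) in library 1. No cell held more than 3 UMIs. In library 2 the share of thinned cells with Tfrc was 3.92% among cells with no Car2 UMI, 1.74% with 1 to 2, 0.735% with 3 to 4 and 0% of the 76 cells with 5 or more, where the exact upper bound was 4.74%. In library 1 the shares over the same classes were 1.97%, 1.88%, 1.01% and 0% (upper bound 16.1%), which do not separate beyond counting error. Cells with a thinned Hbb-bt UMI had Tfrc in 1 of 240 cells of library 2, where the product of the separate shares gives 6.69 cells, and in 1 of 224 cells of library 1, where it gives 4.22 cells. Over all UMIs, Tfrc was in 6.33% (2.09 to 14.2) of cells with at least 3 Hbb-bt UMIs, against 6.00% (5.29 to 6.77) of cells with none, in library 2. In library 1 the shares were 3.26% (0.678 to 9.23) and 2.95% (2.36 to 3.64). That class is narrower and its cells were deeper, at a median of 4506 UMIs against 3752 UMIs in library 2. In library 1 the medians were 3431 and 2768 UMIs. Tfrc rose steeply with depth, so these shares cannot be set against those at equal depth. Thinning removes a larger part of the UMIs of deeper cells, and Car2 barely rose with depth. The part of depth in the thinned Tfrc shares by Car2 and by Hbb-bt was not tested.

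Hbb-bt encodes an adult beta-globin chain of the mouse (chr7:103812524-103813996, minus strand). It had 881 UMIs in 451 cells of library 2, or 9.87% (9.02 to 10.8), and 995 UMIs in 403 cells of library 1, or 12.4% (11.3 to 13.6). The other adult globin genes were close to absent. Hbb-bs, its neighbour on the chromosome, had 15 UMIs in library 2 and 15 UMIs in library 1, Hba-a1 had 4 and 11 UMIs, and Hba-a2 had 3 and 4 UMIs. In mature red cells the beta chains pair with alpha chains from the Hba genes. Here the other 3 globin genes together had 2.50 UMIs per 100 Hbb-bt UMIs in library 2 and 3.02 in library 1.

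Hbb-bt and Hbb-bs are near-identical genes, and 36.3% of the 50-nucleotide words in the last 300 nucleotides of Hbb-bt also occur in Hbb-bs, so part of their reads could not be told apart and the counts of both are uncertain. Hba-a1 and Hba-a2 share more, 80.1% and 73.7%. None of the other 8 genes shared such a word with another gene. The upstream sequences of the neighbouring genes are printed because their UMI counts differed so widely, from 250 bases before the start to 50 after it (RefSeq, GRCm38.p6, both on the minus strand, at chr7:103813874-103814173 for Hbb-bt and chr7:103827879-103828178 for Hbb-bs). Capitals mark GATA motifs (AGATAA, or the same with T in front, G at the end or both) and CACCC motifs (bound by Krüppel-like factors), on either strand.
Hbb-bt: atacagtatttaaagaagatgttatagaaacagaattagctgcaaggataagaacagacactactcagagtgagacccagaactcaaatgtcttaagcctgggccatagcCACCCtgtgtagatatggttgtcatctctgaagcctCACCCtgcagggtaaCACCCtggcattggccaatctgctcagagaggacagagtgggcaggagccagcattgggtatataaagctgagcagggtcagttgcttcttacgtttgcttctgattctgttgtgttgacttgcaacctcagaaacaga
Hbb-bs: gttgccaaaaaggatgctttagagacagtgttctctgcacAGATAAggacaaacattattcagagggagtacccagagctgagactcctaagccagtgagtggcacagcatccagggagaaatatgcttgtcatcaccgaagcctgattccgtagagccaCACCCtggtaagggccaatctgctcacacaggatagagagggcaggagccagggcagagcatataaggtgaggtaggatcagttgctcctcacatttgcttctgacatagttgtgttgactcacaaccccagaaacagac
Aligned end to end, 226 of 311 columns were identical, or 72.7%. The Hbb-bt window held 3 CACCC motifs, at -140, -104 and -89 from the start, and no GATA motif. The Hbb-bs window held a GATA motif at -210 and 1 CACCC motif at -90. Of 32851 mouse promoter windows of this length, 29.8% held a GATA motif and 57.5% a CACCC motif, and a match is a description of the letters only.

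Hbb-bt UMIs were clumped. Most cells with Hbb-bt had 1 UMI, but 79 cells of library 2, or 1.73% (1.37 to 2.15), and 92 cells of library 1, or 2.83% (2.29 to 3.46), had at least 3. These cells held 49.9% of the Hbb-bt UMIs of library 2 and 61.8% of those of library 1, and the highest cell held 23 UMIs in library 2 and 25 in library 1. At 2000 UMIs per cell the variance of Hbb-bt over cells was 3.66 times its mean in library 2 and 4.44 times in library 1, where UMIs spread at random over cells would give a ratio near 1, as seen for Itga2b with 0.992 and 0.995. The cells with at least 3 Hbb-bt UMIs contained 440 Hbb-bt and 3 other globin UMIs in library 2, and 615 Hbb-bt and 1 other globin UMIs in library 1. Cells with no Hbb-bt contained 14 other globin UMIs in library 2 and 17 in library 1. These classes were set by Hbb-bt itself, so the counts are a description. In the cells of library 1 with at least 20 MHC class II UMIs, Hbb-bt was found in 4 of 41 cells, or 9.76% (2.72 to 23.1), against 12.4% (11.3 to 13.6) of the remaining cells. With 41 cells these shares could not be told apart, and the highest of the 41 cells held 9 Hbb-bt UMIs. The part of free RNA in the Hbb-bt counts was not tested.

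**Figure D4:**
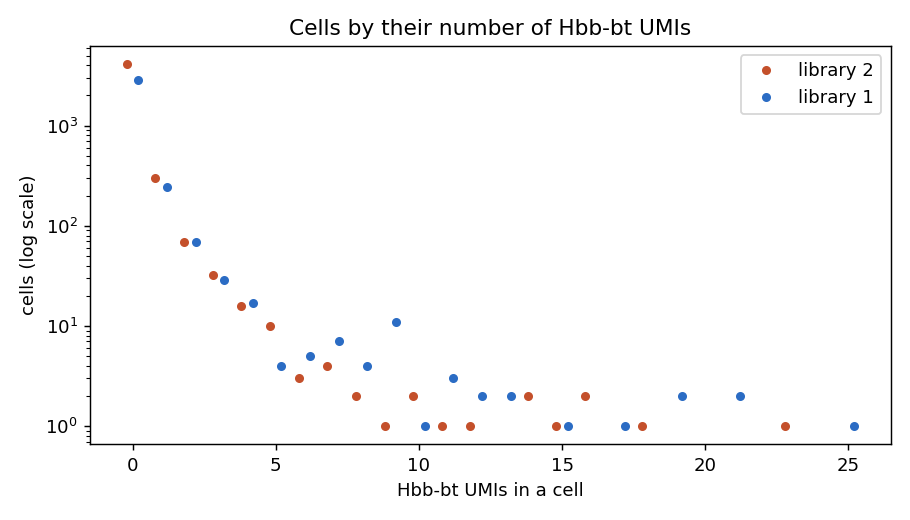
Number of kept cells (vertical axis, logarithmic) by the number of Hbb-bt UMIs in the cell (horizontal axis); points of library 2 are set slightly left and those of library 1 slightly right of the whole number. In both libraries the counts fall steeply to about 5 UMIs. Small numbers of cells, as many as 11 at 9 UMIs in library 1, then run on to 23 UMIs in library 2 and 25 UMIs in library 1.

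The share of cells with Hbb-bt also differed between cells rich in Dntt and other cells beyond counting error. Among cells with at least 3 Dntt UMIs it was 6.14% (4.88 to 7.61) at a median depth of 3931 UMIs, against 11.3% (10.2 to 12.4) of the remaining cells at 3778 UMIs, in library 2. At 2000 UMIs per cell, cells with a Dntt UMI had Hbb-bt at 0.640 (0.514 to 0.793) of the level in cells without it in library 2 and at 0.332 (0.256 to 0.427) in library 1. Hbb-bt and Apoe were the 2 of 4 counted genes past 1.5-fold lower in both libraries in Dntt cells, where 1.55% of all genes passed. For Apoe this rested on few cells: 9 thinned cells of library 2 and 5 of library 1 had both Apoe and Dntt. Over all UMIs Apoe was at 0.376 (0.229 to 0.602) in library 2 and 0.602 (0.299 to 1.17) in library 1. The second interval includes 1. In library 2, cells with at least 3 Hbb-bt UMIs had Hlf in 22.8% (14.1 to 33.6), against 14.6% (13.5 to 15.7) of cells with none. These intervals overlap. In library 1 such cells had Hlf in 26.1% (17.5 to 36.3), against 12.9% (11.7 to 14.2) of cells with none. Dntt ran the other way in them, at 0.364 of its level in cells without Hbb-bt in library 2 and at 0.223 in library 1. Car2 was 1.53-fold and 1.51-fold higher in them, in library 2 and library 1, one of the 1.79% of 7525 genes past 1.5-fold in both. Hemgn was 2.04-fold and 2.96-fold higher, while Blvrb, at 0.974-fold and 1.26-fold, was not. The median depth of the cells with at least 3 Hbb-bt UMIs was 4506 UMIs, against 3752 UMIs in cells with none, in library 2, and 3431 UMIs against 2768 UMIs in library 1; the part of depth in these shares was not tested.

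Itga2b, the CD41 chain of the platelet fibrinogen receptor (chr11:102453297-102470122), and Pf4, platelet factor 4, a chemokine of platelet granules (chr5:90772435-90773383), were the megakaryocyte genes of the 9. Itga2b had 70 UMIs in 1.47% of cells (1.14 to 1.86) in library 2 and 32 UMIs in 0.953% (0.648 to 1.35) in library 1. Pf4 had 24 UMIs in 24 cells of library 2 and 23 UMIs in 23 cells of library 1, never more than 1 in a cell. No cell thinned to 2000 UMIs had both. The product of the separate shares gives 0.0926 cells in library 2 and 0.0532 cells in library 1, too few to show whether they overlap. Defining genes of the megakaryocyte lineage were at or near 0: Gp1ba, Gp6 and Treml1 had no UMI, and Vwf, von Willebrand factor, had 7 UMIs in library 2 and 0 UMIs in library 1. Of the 13 genes of the megakaryocyte list, 4 had at least 50 UMIs, namely Plek with 22.0 CPM in library 2 and 25.9 CPM in library 1, Cd9 with 15.7 and 19.9 CPM, Gp9 with 6.88 and 6.33 CPM, and Selp with 2.29 and 3.76 CPM. Selp, the adhesion molecule P-selectin, was past 1.5-fold lower in library 2.

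The upstream windows of these 2 genes are printed because both genes were higher in the cells with Hlf or Mecom, described next (RefSeq, GRCm38.p6; Itga2b at chr11:102469834-102470133, minus strand, and Pf4 at chr5:90772185-90772484, plus strand; capitals as above).
Itga2b: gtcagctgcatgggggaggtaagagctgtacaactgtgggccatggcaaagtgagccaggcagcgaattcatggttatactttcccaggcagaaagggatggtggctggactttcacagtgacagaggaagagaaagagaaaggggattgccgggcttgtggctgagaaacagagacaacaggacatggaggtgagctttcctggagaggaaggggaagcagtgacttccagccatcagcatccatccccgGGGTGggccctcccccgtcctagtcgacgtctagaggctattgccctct
Pf4: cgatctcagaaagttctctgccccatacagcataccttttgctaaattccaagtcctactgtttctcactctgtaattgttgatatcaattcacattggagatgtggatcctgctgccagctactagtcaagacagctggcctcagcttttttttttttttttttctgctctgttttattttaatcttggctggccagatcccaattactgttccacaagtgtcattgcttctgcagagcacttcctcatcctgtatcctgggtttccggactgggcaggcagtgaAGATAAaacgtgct
Itga2b had a CACCC motif, read on the other strand, at 1 and no GATA motif, and Pf4 had a GATA motif at 36 and no CACCC motif.

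Cells with Hlf or Mecom held more Hbb-bt, Itga2b and Pf4 than cells with neither. Over all UMIs of the kept cells, Itga2b had 6.92 CPM in the 892 such cells and 2.94 CPM in the 3678 other cells of library 2, and 6.81 CPM in the 615 such cells and 2.15 CPM in the 2638 other cells of library 1. That is 2.36-fold (1.39 to 3.91) and 3.17-fold (1.47 to 6.75). Pf4 was 2.85-fold higher (1.13 to 6.89) in library 2, from 10 of 24 UMIs, and 2.76-fold higher (1.09 to 6.82) in library 1, from 10 of 23 UMIs. Over all UMIs both genes were thus higher with Hlf or Mecom in each library, from few counts. Hbb-bt had 76.9 CPM against 39.5 CPM in library 2 and 159.8 CPM against 81.2 CPM in library 1, or 1.95-fold (1.69 to 2.24) and 1.97-fold (1.72 to 2.24). Car2 was 1.54-fold (1.46 to 1.62) and 1.26-fold (1.16 to 1.36) higher. In this comparison, added after the data had been seen, 3 of the 8 genes with at least 20 UMIs passed 1.5-fold upwards in both libraries, Itga2b, Pf4 and Hbb-bt, and 2.40% of all genes did. Car1, with no UMI in the class, was the 1 gene counted as lower, where 1.87% of all genes were. It was in only 8 other cells of library 2 and 2 of library 1, too few to show a lower share of cells.

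The comparison at equal depth, 2000 UMIs per cell with 444 and 306 cells in the class, gave Hbb-bt alone among 4 genes with at least 50 UMIs, against 1.89% of all genes. Its ratio was 1.90 (1.46 to 2.46) in library 2 and 2.54 (2.04 to 3.16) in library 1. Car2 was at 1.68 (1.53 to 1.84) and 1.39 (1.21 to 1.60), found in 63.7% of the cells with Hlf or Mecom and 45.2% of the others in library 2, and in 52.6% and 37.8% in library 1. Tfrc was counted as lower, at 0.521 (0.205 to 1.11) and 0.635 (0.166 to 1.74), where 2.23% of all genes were, but both intervals include 1. Thinning left Itga2b with 4 UMIs in the class in library 2 and 2 in library 1, and ratios of 1.19 (0.303 to 3.42) and 1.27 (0.137 to 5.82), so its difference was not detectable at that depth. By Hlf alone the Itga2b log2 values were 0.71 and 0.81. By at least 2 UMIs of a list of stem-like genes without Ifitm1 they were -1.01 and 0.38. By Mecom alone, 0 of 131 cells of library 2 and 0 of 87 cells of library 1 had Itga2b. The Hbb-bt ratio in library 2 depended on Hlf: by Mecom alone its log2 value was -0.69. In library 1 it depended on the depth chosen: its log2 value was 0.12 at 1000 UMIs and 0.22 at 3000 UMIs per cell, against 1.35 at 2000 UMIs, so at both of those depths Hbb-bt did not pass in both libraries.

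Over all UMIs, 1 of the 4 megakaryocyte genes and none of the 5 erythroid genes with at least 20 UMIs were past 1.5-fold higher with Hlf or Mecom in both libraries. The megakaryocyte gene was Selp, at 1.93-fold (0.940 to 3.76) in library 2 and 1.87-fold (0.878 to 3.79) in library 1, with intervals that include 1. Hemgn had 1.44-fold (0.944 to 2.16) and 2.21-fold (1.31 to 3.64), Gp9 0.820-fold (0.493 to 1.31) and 0.916-fold (0.457 to 1.71). Car1 had 0 UMIs in the 892 cells of library 2 (exact upper bound 0.413% of cells) and in the 615 cells of library 1 (0.598%). Among the other cells it was in 0.218% in library 2 and 0.0758% in library 1. Both shares lie below those bounds, so a lower share of cells in the class was not detectable.

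**Figure D5:**
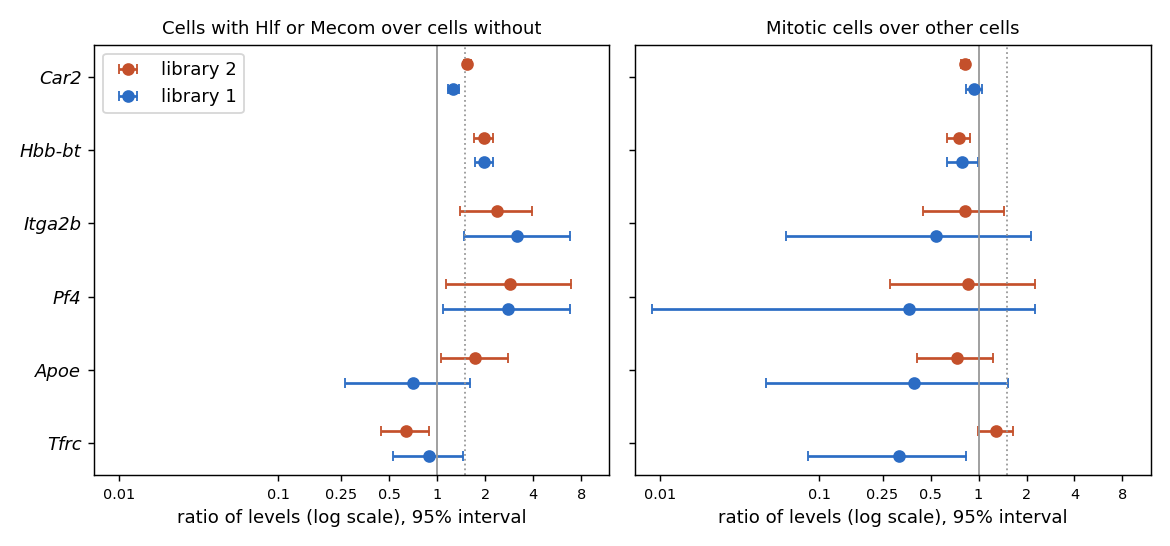
Ratio of the level over all UMIs in cells with Hlf or Mecom to that in cells without (left panel), and in mitotic cells to that in other cells (right panel), on a logarithmic axis with exact conditional Poisson 95% intervals; library 2 is drawn above library 1, the solid line marks 1 and the dotted line 1.5. Hbb-bt, Itga2b and Pf4 lie right of the dotted line in both libraries on the left, and none of the 6 genes drawn does in both on the right.

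None of the 4 counted genes was higher in mitotic cells in both libraries. At equal depth, 995 cells of library 2 and 303 cells of library 1 had at least 10 UMIs of 26 genes of G2 and mitosis. Before thinning these cells were deeper, at a median of 5201 UMIs against 3752 UMIs in library 2. In library 1 the medians were 3918 and 3160.0 UMIs, and the part of depth in the ratios was not tested. Of 4 genes with at least 50 UMIs, 0 were past 1.5-fold higher in both libraries, where 3.18% of all genes were, and 0 were lower, where 3.74% were. Car2 was at 0.802 (0.737 to 0.871) in library 2 and 1.1 (0.945 to 1.28) in library 1, where the interval includes 1. Hbb-bt was at 0.958 (0.751 to 1.21) and 0.751 (0.530 to 1.04). Tfrc was at 0.801 (0.488 to 1.27) and 0.307 (0.0361 to 1.17). Over all UMIs, with mitotic genes at 0.5% of a cell's UMIs or more, 1 of 8 genes passed, Car1, which came from 31 UMIs of 1 cell in library 2 and 10 UMIs of 1 cell in library 1, against 2.88% of all genes. By the same measure Car2 was at 0.821 (0.778 to 0.867) and 0.940 (0.839 to 1.05), and Itga2b at 0.824 (0.447 to 1.45) and 0.538 (0.0623 to 2.12). Tfrc was at 1.28 (0.996 to 1.65) in library 2, the other side of 1 from its value at equal depth, and at 0.316 (0.0846 to 0.835) in library 1.

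Apoe, the apolipoprotein that carries lipids and is made by macrophages among other cells (chr7:19696109-19699188), had 86 UMIs in 1.66% of cells (1.31 to 2.08) in library 2 and 43 UMIs in 1.20% (0.854 to 1.64) in library 1. With Hlf or Mecom it was at 1.73-fold (1.05 to 2.78) in library 2 and 0.699-fold (0.262 to 1.59) in library 1 over all UMIs. At equal depth it was at 1.88-fold (0.696 to 4.36) and 1.5-fold (0.276 to 5.36), so its direction in library 1 depended on the measure, and only the first of these 4 intervals leaves out 1. Cells with a UMI of C1qa, C1qb or C1qc, complement genes of macrophages, had Apoe in 20.0% (11.9 to 30.4) of 80 cells, against 1.34% (1.02 to 1.72) of the other cells, in library 2. In library 1 Apoe was in 10.4% (4.59 to 19.4) of 77 such cells, against 0.976% (0.664 to 1.38) of the others. Most Apoe cells had no C1q UMI all the same, 60 of 76 in library 2 and 31 of 39 in library 1. The median depth was 3996 UMIs in the C1q cells and 3834 UMIs in the others in library 2, and 3751 and 2810.5 UMIs in library 1. The 7-gene macrophage list summed to 159 CPM in library 2 and 159.9 CPM in library 1; its part in the Apoe values was not tested.

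Markers of other lineages stood beside these results as follows. The mast and basophil list, whose cells share Gata1 and Gata2, summed to 14.1 CPM in library 2 and 13.9 CPM in library 1, mostly Mcpt8, a basophil protease, with 11.2 and 10.5 CPM, then Hdc, histidine decarboxylase, with 2.13 and 3.16 CPM, while Cpa3 had 0.587 and 0.198 CPM and Prss34, Cma1 and Tpsb2 had no UMI. Summed levels of the erythroid list were 66.7 CPM in library 2 and 72.5 CPM in library 1. Those of the megakaryocyte list were 48.6 and 57.5 CPM. The 4 MHC class II genes of dendritic cells summed to 231 CPM in library 2 and 791 CPM in library 1. The neutrophil list gave 35.6 and 17.8 CPM. The part of these cells in the Hbb-bt ratio was not tested.

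Likeness over thinned cells was measured for Car2 and Hbb-bt, the genes of the 9 with at least 200 thinned UMIs, as Pearson correlation of log2(UMIs + 1) with 5313 genes, each cell contributing 1 point and cells of a library sharing their source. All values were low. The genes nearest to Car2 were Ifitm1 (0.21 in library 2, 0.18 in library 1), Ctla2a (0.23, 0.17), Malat1 (0.21, 0.16), Vamp5 (0.16, 0.14) and Ifitm3 (0.14, 0.16). Among those nearest to Hbb-bt were Cd63 (0.11, 0.11), Ifitm1 (0.06, 0.10), Ctla2a (0.06, 0.07) and Car2 (0.06, 0.09).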

How the data were processed

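UMI counts were deposited by the authors as 1 matrix of 27998 genes by 7884 barcodes, with both libraries together and none scaled. Cell Ranger 1.1 and the build mm10 are named per the submitters' processing notes. Read filters, gene assignment and cell calling are otherwise not given in the sources used here. These 9 genes, the marker lists and the comparisons were chosen with earlier results of these data known.

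From the counts, cells were kept by genes and mitochondrial UMIs (59 barcodes of library 1 and 2 of library 2 were set aside), UMIs were summed per library and scaled, and cells of at least 2000 UMIs were thinned once at random to 2000, leaving out 554 cells of library 2 and 809 of library 1. A gene counted as past 1.5-fold in a class of cells only when it was so in both libraries. Doublets were not removed; leaving out the 5% of cells with the most UMIs was an alternative. Genes named beside the 9 were Hlf, Mecom and the other globins, the 3 of each wider list with the most UMIs, any of them past 1.5-fold, and the 5 nearest by correlation; genes of the Car1 and Hbb-bt cells, Klf1, Rhd, Epor, Alas2, Vwf, Slc4a1 and the sort and macrophage markers were named after their values were seen. Some genes that this rule takes are left out of this report, and the erythroid-regulator class was formed without 1 planned gene. Positions and 3' sequence came from GENCODE M21. The 7 genes with an entry in the promoter table were matched by symbol; Car1 and Car2 have none. The class comparison and the intervals were tested on simulated counts. Those counts spread at random over cells, and the class comparison used well-counted genes with changes larger than 1.5-fold. Clumped genes such as Hbb-bt and calls on few UMIs were not covered. Python 3.11.15 was used with numpy 2.4.6, scipy 1.17.1 and pandas 2.3.3.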

Additional observations from a re-analysis of the deposited data

How the results depend on the processing

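No paired analysis was possible because each genotype has 1 sample and no barcode suffix is tied to one. Between the libraries, Hbb-bt was the gene counted as lower in every setting tried; the count of genes higher in library 2 fell to 0 after thinning to 2000 UMIs and to 0 without the 6 cells rich in Car1, and the gene counted was Tfrc in place of Car1 with the mean over cells of CPM and without the deepest 5% of cells. With Hlf or Mecom, the count at equal depth was 1. It became 0 at 1000 UMIs per cell, 2 with another random draw (Car2 and Hbb-bt), 2 without the 5% of cells with the most UMIs (Itga2b and Hbb-bt), 2 with at least 2 UMIs of the stem-like list (Car2 and Hbb-bt), 2 with that list without Ifitm1 (Apoe and Hbb-bt), and 3 over all UMIs. The 1 gene was Car2 at 3000 UMIs and Apoe with Mecom alone, so Hbb-bt was lost in both. With mitotic genes it was 0 at equal depth and 1 over all UMIs (Car1, 1 cell in each library). With erythroid regulators it was 2, and became 1 at 3000 UMIs, 0 with another random draw, 1 with the stricter filter of 1000 genes and 5% mitochondrial UMIs, 1 without the deepest 5% of cells, and 1 without the Car1 cells, where Car2 was lost; with Epor alone there was no value, since 1 library had no such cell. Of 321 single-gene values under an alternative, 39 had the opposite sign. In 36 of them the interval had included no difference, among them Tfrc and Car2 with mitotic genes and Apoe with Hlf or Mecom. The other 3 were in library 2: Hbb-bt with Mecom alone (-0.69 on the log2 scale), Car2 with at least 20 mitotic UMIs (0.19), and Hbb-bt with erythroid regulators under the stricter filter (-0.06). The causes were not tested. The setting over all UMIs, those without Car1 cells and the list without Ifitm1 were chosen after seeing the data. The stem-like list with Ifitm1 took in 3406 of 4016 thinned cells in library 2 and 2056 of 2444 in library 1. That class held most cells, so it says little about the Hlf or Mecom class. Depth limits Gata1 and Zfpm1, with 3 and 22 UMIs in all, to statements about detection. Pf4 had 47 UMIs in all, and its ratios with Hlf or Mecom rest on 10 UMIs of that class in each library.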
